A study of Mus musculus with 6 samples.

Results

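The Hox genes encode homeodomain transcription factors that give cells along the body axis their position. Transcripts of these genes were measured on Affymetrix mouse arrays in E14TG2a embryonic stem (ES) cells, a mouse line that remains undifferentiated while leukaemia inhibitory factor (LIF) is present. The 3 differentiating samples spent 3 days in medium lacking LIF and were FACS-sorted for the presence of 5T4, a surface glycoprotein that appears early in ES cell differentiation. The 3 undifferentiated samples were kept in LIF (1000 units per ml) and sorted for the absence of 5T4. The effects of LIF withdrawal and of the 5T4 sort thus cannot be told apart, and all 6 samples come from the one parental line. The members are the genes whose symbol is Hox, a cluster letter from a to d, and a number, at a probe set annotated with that symbol alone. Where a gene had several such probe sets, the one with the highest mean over the 6 arrays was taken. This gave 33 genes from 48 probe sets, of 18193 genes and 45037 probe sets in all. The RefSeq gene table lists 39 genes with such symbols, and those without such a probe set were not analysed here.

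Mouse Hox genes lie in 4 clusters on separate chromosomes, Hoxa on 6, Hoxb on 11, Hoxc on 15 and Hoxd on 2. In the embryo the low-numbered genes at one end of each cluster are switched on first and furthest forward, and the high-numbered genes later and further back. In ES cells the clusters are known to be held silent by Polycomb complexes, which place a repressive methyl mark on histone H3, and retinoic acid is the classical signal that releases them.

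Hox transcripts gave low signals in both groups, and no Hox gene passed the test between them. Of the 33 genes, 0 rose and 0 fell in differentiating relative to undifferentiated cells at an adjusted p under 0.1 in limma, where 1.60% of all probe sets passed (0.573% higher and 1.03% lower). With a log2 fold change of at least 1 required as well, the threshold of the methods, 0 were called, against 0.941% of all probe sets. At an unadjusted p under 0.05 the count was 3 of 33, or 9.09%, against 13.7% of all probe sets. Of these, 2 were higher (Hoxb7 and Hoxc8), beside 6.28% of all probe sets, and 1 was lower (Hoxb13), beside 7.44%. The log2 fold changes, differentiating minus undifferentiated, ran from -0.50 (Hoxb13) to 0.33 (Hoxb3), and 22 genes lay within 0.2 of 0. The smallest adjusted p of any member was 0.28 in limma. None of the 48 single-symbol Hox probe sets passed either, whichever probe set of a gene was taken.

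The 95% interval of the log2 fold change lay between -1 and 1 for 32 of the 33 genes, against 85.4% of all probe sets. The exception was Hoxc13, a gene of hair and nail formation, with an interval from -1.10 to 0.17. The standard errors had a median of 0.15, against 0.16 over all probe sets. These intervals hold for the array values. At low signal, background adds to the value and a fold can understate a change in the transcript, and the table holds no detection calls. The replicates are numbered, but no source says whether they were separate cultures, so p-values measure only the spread between these samples.

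**Figure D1:**
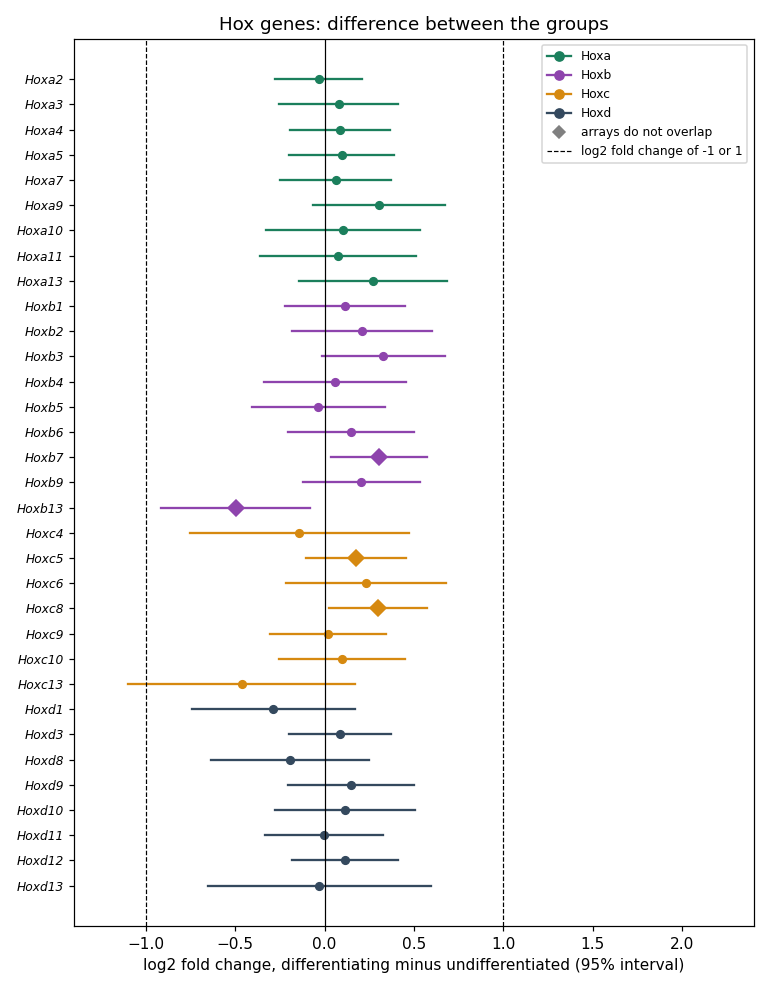
Horizontal axis, log2 fold change as differentiating minus undifferentiated, for each of the 33 Hox genes with its 95% interval from limma, coloured by cluster; diamonds mark genes whose arrays do not overlap between the groups, and dashed lines stand at -1 and 1. All intervals but that of Hoxc13 lie inside the dashed lines, and those of Hoxb7, Hoxc8 and Hoxb13 leave out 0.

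The signal of the Hox probe sets was low relative to the rest of the array. The values used are RMA values, which are log2 intensities summarised per probe set. Averaged over 6 arrays, the members ranged from 3.24 (Hoxc8) to 7.20 (Hoxa7), with a median of 4.80, against a median of 5.59 over all probe sets. Of the 33 genes, 13 lay among the lowest 25% of all probe sets, 11 between there and the median, 9 from the median to the 75th percentile and 0 above it. Taking each gene's brightest probe set raises this count, and with all probe sets of a gene averaged 4 genes lay above the median in place of 9. The probe sets of a gene differ in how strongly they bind, so this order ranks probe sets and not transcript abundance. Genes with more than 1 probe set showed how wide that difference was, since for 11 such genes the means of the dimmest and brightest probe set differed by 0.19 to 2.90. The largest gap was that of Hoxa3, whose probe sets averaged between 3.33 and 6.23.

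**Figure D2:**
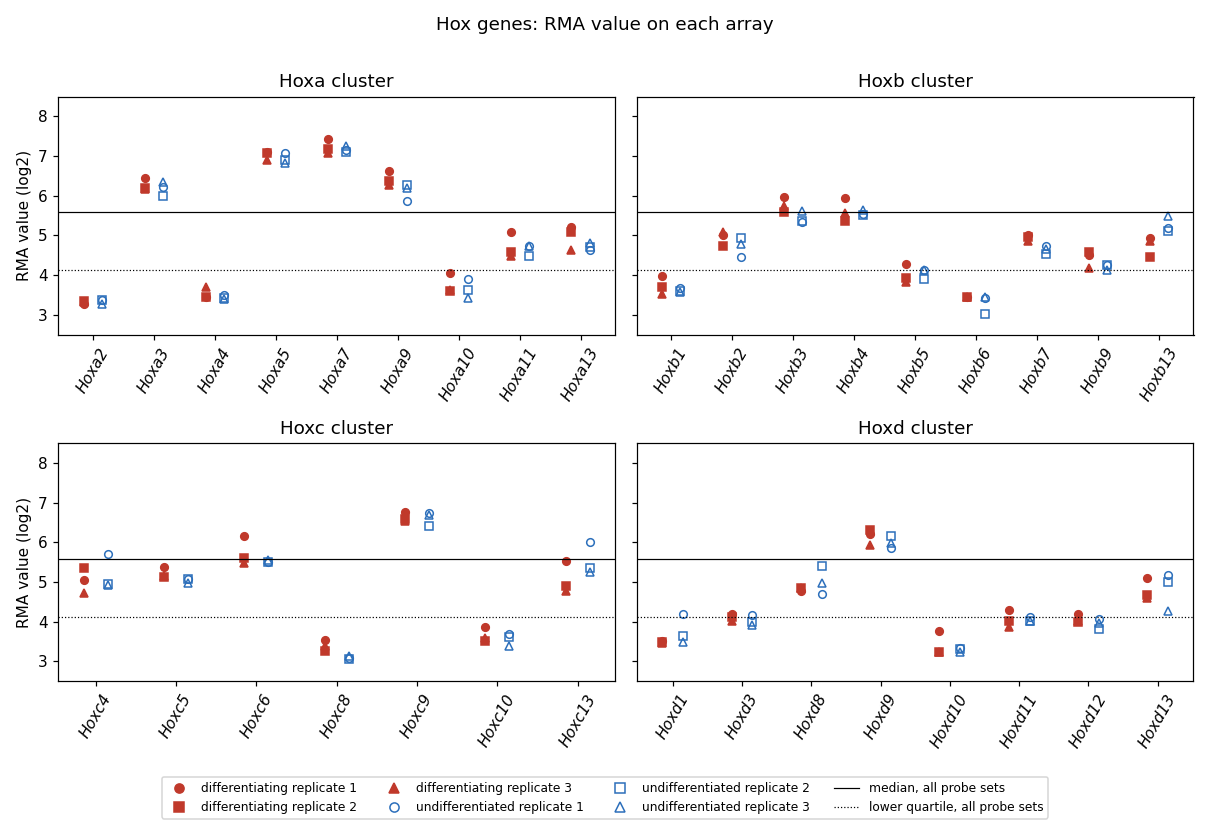
RMA value (log2, vertical axis) of each Hox gene on each array, in 4 panels by cluster and in order of gene number; filled red symbols are the 3 differentiating arrays and open blue symbols the 3 undifferentiated arrays, with symbol shape giving the replicate. No gene reaches 8, the solid line is the median of all probe sets (5.59), the dotted line is their lower quartile (4.12), and the red and blue symbols overlap for 29 of the 33 genes.

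The 6 brightest members showed no separation of the groups. Hoxa7, a gene of trunk patterning, had RMA values of 7.43, 7.18 and 7.09 in differentiating cells, against 7.15, 7.10 and 7.26 in undifferentiated cells. Differentiating replicate 1 was the highest of these 6 arrays, and the other arrays of both groups were interleaved (log2 fold change 0.06, 95% interval -0.25 to 0.37). Hoxa5, which acts in lung and neck development, had 7.10, 7.08 and 6.91 in differentiating cells, against 7.09, 6.89 and 6.83 in undifferentiated cells. That probe set is of a class open to cross-hybridisation by its suffix, and the other Hoxa5 probe set averaged 4.78 with a log2 fold change of -0.07. Hoxc9, known from thoracic motor neurons, had 6.77, 6.59 and 6.53 in differentiating cells, against 6.74, 6.41 and 6.69 in undifferentiated cells. Its groups overlapped throughout (log2 fold change 0.02, 95% interval -0.30 to 0.34).

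Hoxa3, needed for thymus and parathyroid formation, had 6.44, 6.19 and 6.17 in differentiating cells, against 6.23, 6.00 and 6.34 in undifferentiated cells. Hoxd9, which patterns the proximal limb with its neighbours, had 6.22, 6.30 and 5.93 in differentiating cells, against 5.85, 6.17 and 5.99 in undifferentiated cells. Both genes overlapped between the groups, with log2 fold changes of 0.08 and 0.15 in that order. Hoxa9, a regulator of blood progenitors, had 6.61, 6.38 and 6.26 in differentiating cells, against 5.87, 6.27 and 6.20 in undifferentiated cells. Only undifferentiated replicate 2 reached the lowest differentiating array, and the log2 fold change was 0.31 (95% interval -0.06 to 0.68, adjusted p = 0.46 from limma). The second Hoxa9 probe set, dimmer at 3.72, had a log2 fold change of -0.15.

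Differentiating and undifferentiated arrays were fully separated for 4 of the 33 genes, or 12.1%, against 20.3% of all probe sets. In 3 of them the differentiating arrays were higher, beside 10.0% of all probe sets, and in 1 lower, beside 10.3%. Hoxb13, the highest-numbered gene of its cluster and one of tail and prostate development, had RMA values of 4.95, 4.45 and 4.87 in differentiating cells, against 5.18, 5.10 and 5.48 in undifferentiated cells. All differentiating arrays lay below all undifferentiated arrays (log2 fold change -0.50, 95% interval -0.91 to -0.08), with an adjusted p of 0.28 from limma. Hoxb7, a trunk gene of the same cluster, had 5.01, 4.95 and 4.85 in differentiating cells, against 4.72, 4.53 and 4.65 in undifferentiated cells. Here the differentiating arrays were the higher ones, by 0.31 on average (95% interval 0.04 to 0.57, adjusted p = 0.305 from limma). Hoxc8, which marks the brachial and thoracic region, had 3.53, 3.26 and 3.39 in differentiating cells, against 3.08, 3.06 and 3.14 in undifferentiated cells. No arrays overlapped, and the groups differed by 0.30 on the log2 scale (adjusted p = 0.326 from limma), at the lowest mean signal of all members, the 4.6th percentile of all probe sets.

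Hoxc5, the remaining one, had 5.37, 5.12 and 5.14 in differentiating cells, against 5.07, 5.08 and 4.96 in undifferentiated cells. The gap between the groups was narrow and the log2 fold change was 0.18 (adjusted p = 0.581 from limma). With arrays weighted by their quality in limma, Hoxb13 passed (-0.76, adjusted p = 0.0282) and so did Hoxb7 (0.33, adjusted p = 0.0583), in a fit that passed 7174 probe sets in place of 720 and gave differentiating replicate 2 a weight of 5.11 and the other arrays weights from 0.298 to 1.55.

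Of the other members with the smallest p, Hoxb3, expressed in hindbrain and pharyngeal arches, had 5.97, 5.59 and 5.74 in differentiating cells, against 5.35, 5.36 and 5.61 in undifferentiated cells. Undifferentiated replicate 3 lay just above the lowest differentiating array (log2 fold change 0.33, 95% interval -0.02 to 0.67). Its second probe set was dimmer, at 3.88, with a log2 fold change of 0.27. Hoxc13 had 5.52, 4.90 and 4.78 in differentiating cells, against 6.00, 5.35 and 5.24 in undifferentiated cells. In each group replicate 1 was the highest, and differentiating replicate 1 lay above 2 of the undifferentiated arrays. Hoxa13, a gene of the digits and the genital tubercle, had 5.22, 5.09 and 4.62 in differentiating cells, against 4.62, 4.71 and 4.80 in undifferentiated cells, where differentiating replicate 3 equalled the lowest undifferentiated array.

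Hoxd1, known from pain-sensing neurons of the mouse, had 3.51, 3.47 and 3.46 in differentiating cells, against 4.19, 3.63 and 3.49 in undifferentiated cells. The difference of -0.29 came mostly from undifferentiated replicate 1, without which it was -0.08. Hoxb9, a gene of rib patterning, had 4.50, 4.58 and 4.19 in differentiating cells, against 4.26, 4.26 and 4.13 in undifferentiated cells, with overlap at differentiating replicate 3. The remaining 18 genes had log2 fold changes between -0.19 (Hoxd8) and 0.23 (Hoxc6).

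No test compared the clusters, and their values are given side by side. The median log2 fold change was 0.09 for 9 Hoxa genes, 0.15 for 9 Hoxb genes, 0.10 for 7 Hoxc genes and 0.04 for 8 Hoxd genes. The 4 genes without overlap were 2 of the 9 Hoxb genes and 2 of the 7 Hoxc genes, beside 20.3% of all probe sets. By position, the 10 genes numbered 1 to 4, which are the first to be switched on in the embryo, had a median of 0.08. The 9 genes numbered 5 to 8 had a median of 0.15, and the 14 genes numbered 9 to 13 a median of 0.10. Hoxb1, the lowest-numbered Hoxb gene and an early responder to retinoic acid, had 3.97, 3.70 and 3.52 in differentiating cells, against 3.68, 3.59 and 3.58 in undifferentiated cells. The arrays overlapped and the probe set lay at the 14.4th percentile of all (log2 fold change 0.11, 95% interval -0.22 to 0.45).

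The log2 fold change was above 0 for 24 of the 33 genes, or 72.7%, against 56.0% of all probe sets and 64.1% of those below the median signal. The median over the members was 0.09, beside 0.03 over all probe sets and 0.06 over those below the median signal. Differentiating replicate 1 moved with this shift. It was the highest of the 6 arrays for 21 of the 33 members, for 45.7% of the probe sets below the median signal and for 30.1% of all. Its lower quartile over all probe sets was 4.26, against 4.09 and 4.08 on the other differentiating arrays and 4.07 to 4.10 on the undifferentiated arrays. Its median over the members was 5.00, against 4.66 and 4.62 on the other differentiating arrays and 4.68 to 4.72 on the undifferentiated arrays. Without this array the members' median log2 fold change was -0.01 and 15 of the 33 lay above 0, with 0 passing and 49.8% of all probe sets above 0.

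**Figure D3:**
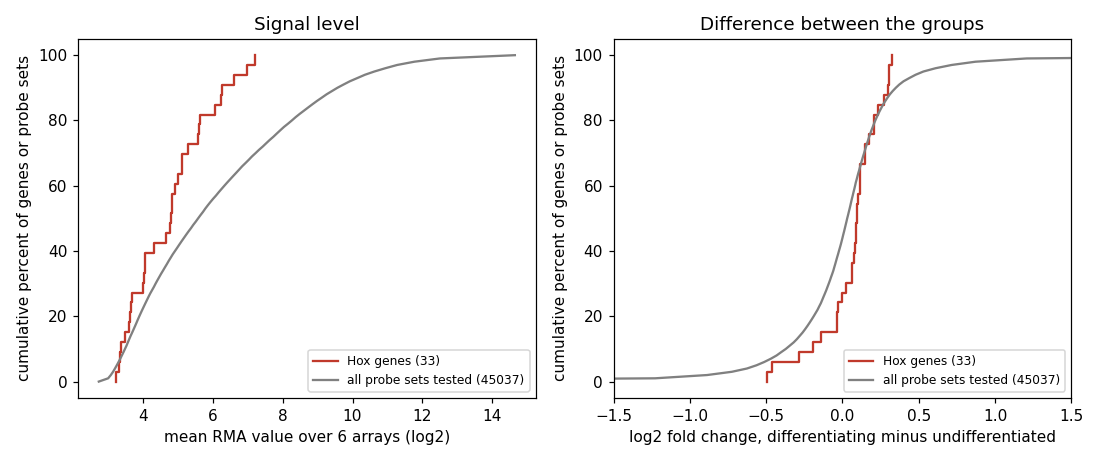
Cumulative percent (vertical axis) of the 33 Hox genes, in red, and of all 45037 probe sets, in grey, by mean RMA value over 6 arrays (left, log2) and by log2 fold change, differentiating minus undifferentiated (right, cut at -1.5 and 1.5). The Hox curve stops at 7.20 while 25% of all probe sets lie above 7.74, and its log2 fold changes run from -0.50 to 0.33.

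Of the 11 genes with several probe sets, 5 had log2 fold changes of both signs, namely Hoxa3, Hoxa5, Hoxa9, Hoxa10 and Hoxd8. Among the rest, Hoxb4, which acts in hindbrain and blood stem cells, had 0.06 at its brighter probe set and 0.34 at a dimmer one whose mean was 3.59. Hoxc6 had 0.23 at the brightest of 3 probe sets and 0.00 at the dimmest. Hoxd13, a limb gene, had -0.03 and -0.16, and its brighter probe set varied from 4.27 to 5.18 among undifferentiated arrays.

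Polycomb complexes are found at DNA rich in the dinucleotide CG, so the promoters of members were searched for it. RefSeq promoter sequences (build GRCm38.p6, 300 bases each, the first listed for a gene) matched 19 of the 33 members. They held a median of 14 CG, from 4 in Hoxa9 and Hoxd11 to 45 in Hoxa13, against a median of 7 over 27025 genes. The observed over expected CG ratio had a median of 0.59 in members and 0.39 over all genes. The comparison set was every gene with a listed promoter, without a filter by gene type or by presence on the array. Whether the difference is particular to Hox promoters was not tested. The 250 bases upstream of the start are shown for 3 genes, with each CG in capitals: Hoxa7, which gave the highest signal, Hoxb1, the early retinoic acid responder, and Hoxd13, the CG-rich promoter at the high-numbered end of Hoxd.
Hoxa7 (chr6:52218574-52218823, minus strand): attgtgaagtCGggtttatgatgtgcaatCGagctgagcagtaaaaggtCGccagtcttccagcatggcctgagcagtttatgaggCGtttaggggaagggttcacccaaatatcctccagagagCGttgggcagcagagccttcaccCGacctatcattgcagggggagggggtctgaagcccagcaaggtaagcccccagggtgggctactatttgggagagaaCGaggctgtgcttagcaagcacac
Hoxb1 (chr11:96365508-96365757, plus strand): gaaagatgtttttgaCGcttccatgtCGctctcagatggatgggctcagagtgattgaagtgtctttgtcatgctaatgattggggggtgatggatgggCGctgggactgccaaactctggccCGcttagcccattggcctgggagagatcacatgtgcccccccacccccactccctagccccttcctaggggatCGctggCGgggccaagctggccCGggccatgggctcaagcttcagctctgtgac
Hoxd13 (chr2:74667975-74668224, plus strand): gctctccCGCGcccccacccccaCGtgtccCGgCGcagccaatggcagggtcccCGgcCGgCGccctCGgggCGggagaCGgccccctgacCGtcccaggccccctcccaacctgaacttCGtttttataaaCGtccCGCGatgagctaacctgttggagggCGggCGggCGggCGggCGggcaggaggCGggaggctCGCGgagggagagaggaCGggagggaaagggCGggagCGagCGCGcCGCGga
The Hoxa7 and Hoxb1 windows each held 7 CG and the Hoxd13 window 31, while the log2 fold changes of these genes were 0.06, 0.11 and -0.03. The letters AGGTCA, a core motif bound by retinoic acid receptors, stood on either strand in 6 of the 19 member promoters, or 31.6%, against 16% of all promoters. None of the Hoxa7, Hoxb1 and Hoxd13 windows was among these 6. TATAAA was found on either strand in 1 of 19, the Hoxd13 promoter, against 14.2% of all. Neither difference in motif share was tested, and binding of a receptor at these letters was not measured.

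Among 84 measured genes that act with, upstream of or beside the Hox genes, 5 passed the test, or 5.95%, beside 1.60% of all probe sets. These shares are not like for like. The lists were chosen with earlier results of these data known and take each gene's brightest probe set, while the share over all counts every probe set. Of 8 measured Hox cofactor genes, 1 rose, 0 fell and 7 did not pass. An unadjusted p under 0.05 was reached by 3 of the 8, beside 13.7% of all probe sets. Besides Pbx3 these were Pknox2, higher (0.73, adjusted p = 0.334 from limma), and Pbx4, lower (-0.52, adjusted p = 0.265 from limma). Pbx3, whose product binds DNA together with Hox proteins, had 9.23, 9.78 and 9.59 in differentiating cells, against 8.52, 8.84 and 8.57 in undifferentiated cells, without overlap (log2 fold change 0.89 with a standard error of 0.17, and adjusted p = 0.0956 from limma). Of 16 genes of retinoic acid signalling, 1 rose and 1 fell. At an unadjusted p under 0.05 the count was 6 of 16, beside 13.7% of all probe sets. Those that did not pass were Rdh10 (1.50) and Aldh1a1 (0.37), both higher, and Crabp1 (-1.12) and Rara (-0.89), both lower. Their adjusted p ran from 0.192 to 0.318 in limma. Dhrs3, a retinaldehyde reductase that lowers retinoic acid, averaged 6.81 ± 0.08 in differentiating cells and 5.93 ± 0.20 in undifferentiated cells (SD, n = 3 each), 1.84-fold higher (adjusted p = 0.0661 from limma). Rarg, a retinoic acid receptor gene, averaged 8.95 ± 0.17 in differentiating cells and 10.06 ± 0.21 in undifferentiated cells (SD, n = 3 each), 2.16-fold lower (adjusted p = 0.0538 from limma). Of 16 Polycomb genes, 0 rose and 1 fell. An unadjusted p under 0.05 was reached by 2 of the 16, beside 13.7% of all probe sets. Both were lower, Eed and Ezh2 (-0.37, adjusted p = 0.295 from limma). Eed, a core subunit of the complex that methylates histone H3, had 10.67, 10.77 and 10.81 in differentiating cells, against 11.64, 12.06 and 12.05 in undifferentiated cells (log2 fold change -1.16, adjusted p = 0.0483 from limma). The mean of all Eed probe sets gave -0.53 (adjusted p = 0.0771 over genes).

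Of 17 genes of the Evx pair and the flanks of the clusters, 0 rose and 1 fell. An unadjusted p under 0.05 was reached by 2 of the 17, beside 13.7% of all probe sets. They were Skap2, lower, and Cbx5, higher (0.29, adjusted p = 0.354 from limma). Skap2, an adaptor protein gene next to the low-numbered end of Hoxa, averaged 9.27 ± 0.31 in differentiating cells and 10.45 ± 0.03 in undifferentiated cells (SD, n = 3 each), 2.25-fold lower (adjusted p = 0.0583 from limma). The nearest Hoxa genes measured here did not pass, since Hoxa2 had a log2 fold change of -0.03 and Hoxa3 one of 0.08. The homeobox gene Evx1, beyond the other end of Hoxa, had 0.18 (adjusted p = 0.621 from limma). These 5 calls were lost when any one of 3 arrays was left out. Their adjusted p ran over 0.286 to 0.374 without differentiating replicate 2, over 0.22 to 0.329 without differentiating replicate 3 and over 0.208 to 0.346 without undifferentiated replicate 3. In these settings 0, 3 and 1 of all probe sets passed, and the log2 fold changes were -1.09 to -1.19 for Eed, -1.04 to -1.18 for Skap2, -1.02 to -1.13 for Rarg, 0.85 to 0.92 for Dhrs3 and 0.77 to 0.86 for Pbx3. Pbx3 was also lost without undifferentiated replicate 1 (adjusted p = 0.134) and with arrays centred on their medians (adjusted p = 0.119), and Dhrs3 when replicate number was blocked (adjusted p = 0.104).

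None of the 6 Cdx and other ParaHox genes passed in limma, with 1 at an unadjusted p under 0.05, a level that 13.7% of all probe sets reached. That gene was Cdx1, a direct activator of Hox genes, with 5.16, 4.79 and 4.86 in differentiating cells, against 5.25, 5.63 and 5.69 in undifferentiated cells (log2 fold change -0.59, adjusted p = 0.201), and Gsx2 had 0.20 (adjusted p = 0.715). None of 10 trithorax and demethylase genes passed in limma, with 2 at an unadjusted p under 0.05. They were the methyltransferase subunit genes Rbbp5 (log2 fold change -0.75, adjusted p = 0.107) and Ash2l (-0.69, adjusted p = 0.139). With all probe sets of a gene averaged both passed in limma (adjusted p = 0.0743 for Rbbp5 and 0.0836 for Ash2l), as did Rbbp5 without undifferentiated replicate 2 (0.0561) and Ash2l without differentiating replicate 1 (0.0794). None of 12 genes of posterior and primitive streak patterning passed in limma, with 2 at an unadjusted p under 0.05, and these were Fgf8, a growth factor gene of the streak (1.73, adjusted p = 0.122), and Fgf4 (-1.41, adjusted p = 0.117). Fgf8 passed in limma without differentiating replicate 1 (2.22, adjusted p = 0.0185) and with averaged probe sets (adjusted p = 0.0882). Fgf4 passed in limma when replicate number was blocked (adjusted p = 0.0655), without undifferentiated replicate 2 (0.0597) and at a probe set less open to cross-hybridisation (0.0949). With array weights Cdx1, Rbbp5, Ash2l, Fgf8 and Fgf4 all passed. The medians of the 7 lists lay between -0.10 and 0.16, beside 0.03 over all probe sets.

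**Figure D4:**
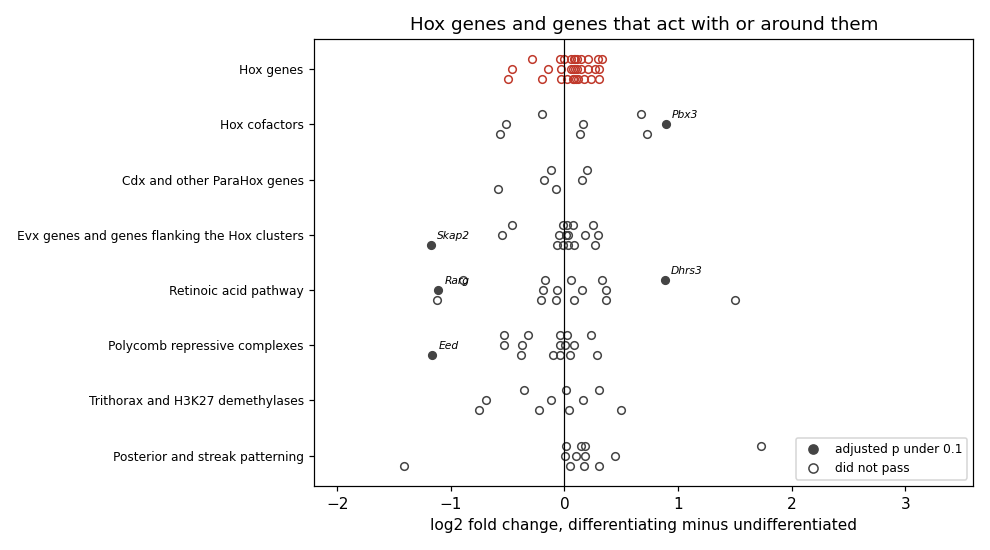
Differences between groups on the log2 scale (differentiating minus undifferentiated, horizontal axis) for the 33 Hox genes and of the measured members of 7 lists of related genes, with 1 point for each gene; filled points passed at an adjusted p under 0.1, and the vertical offset only separates points. The Hox points stay between -0.50 and 0.33 and none is filled, while Pbx3, Dhrs3, Rarg, Eed and Skap2 are filled.

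The labelled cell type was checked by 8 genes of ES cell identity, all in the top 25% of probe sets, whose mean RMA value was 11.17 to 11.50 on differentiating arrays and 11.98 to 12.30 on undifferentiated arrays. Pou5f1 and Sox2 fell and the other 6 did not pass. At an unadjusted p under 0.05 the count was 6 of the 8, all lower, with a list median of -0.59. Zfp42 was lower by 2.64 on the log2 scale without overlap (adjusted p = 0.106 from limma). Dppa5a, Sall4 and Nanog were also lower without overlap, while Utf1 (-0.15) and Lin28a (0.32) overlapped between the groups. Of the markers of other cell types, 10 of fibroblasts, 9 of blood and endothelium and 8 of endoderm, none passed in limma, with 3, 2 and 1 at an unadjusted p under 0.05, beside 13.7% of all probe sets. Their mean values ran from 5.55 to 6.02, 4.74 to 5.17 and 5.45 to 5.49 on differentiating arrays, against 5.20 to 5.67, 5.22 to 5.38 and 5.02 to 5.42 on undifferentiated arrays. At that unadjusted level the 3 fibroblast genes (Dcn, Pdgfra and Postn) were higher in differentiating cells. The endoderm gene Dab2 was 3.89-fold higher (adjusted p = 0.141 from limma), and the 2 genes of blood and endothelium (Runx1 and Pecam1) were lower. Of 6 neural markers, 2 had an unadjusted p under 0.05, and the list median was -0.02. Tubb3 passed, 2.46-fold lower (adjusted p = 0.0897 from limma), and Nes did not, at 2.26-fold higher (adjusted p = 0.153 from limma). The list means were 5.91 to 6.51 on differentiating arrays and 6.29 to 6.50 on undifferentiated arrays. Tpbg, the gene of 5T4, was higher by 1.27 on the log2 scale and missed the threshold (adjusted p = 0.22 from limma), with overlap between the groups. Its other probe sets were higher without overlap, by 1.39 (adjusted p = 0.118) and 0.38 (adjusted p = 0.237). In such bulk samples, fewer cells of a type and less RNA per cell cannot be told apart, and the part of other cell types in the Hox values was not tested.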

How the data were processed

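The data are the 6 arrays described above, 3 per group. The authors processed them with RMA in the affy library (version: not given in the sources used here). The deposited values are therefore on a log2 scale, after RMA's background correction, quantile normalization and probe set summary. They were not transformed again. Probe sets were named by the platform annotation, and the symbols of all 33 members matched the RefSeq table (GRCm38.p6) by gene ID. The 64 control probe sets among 45101 were excluded. Groups were compared with limma 3.58.1 (lmFit, eBayes) in R 4.3.3 on the other 45037, with p-values adjusted by Benjamini-Hochberg across that table and no replicate block, since the methods name none. Steps were tested on simulated data. Members, lists, tests and alternatives were chosen with earlier results of these data known. Array values are given for the 10 members of smallest p and the 6 brightest, and also for Hoxb1. From each list, up to 4 genes that passed are named, or the 2 of largest change. Further genes named were chosen after their values were seen. Alternatives changed the block, filter, normalization, variance model, weights, arrays, probe set and thresholds. The number of arrays limits the precision.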

Additional observations from a re-analysis of the deposited data

How the results depend on the processing

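No Hox gene passed in the main test or in any alternative except 2 settings, array weights, with 2 members (Hoxb13 and Hoxb7), and an unadjusted p under 0.05, with 3. Over all probe sets 720 passed, against 7174 with array weights, 105 at an adjusted p under 0.05, 424 with the fold threshold, 6176 at an unadjusted p under 0.05 and 0 to 1491 with each array left out. The members without overlap numbered 5 to 10 with each array left out, beside 26.5 to 33.8% of all probe sets, since fewer arrays overlap less by construction. Those above the median signal were 6 to 9 in those settings, and 4 when all probe sets of a gene were averaged. Their median log2 fold change was -0.01 to 0.14 with each array left out and 0.05 to 0.09 otherwise. The 5 calls in the other lists became 17 with array weights, 8 with averaged probe sets, 1 at an adjusted p under 0.05, 3 with the fold threshold, 18 at an unadjusted p under 0.05 and 0 to 8 with each array left out. The direction was followed for the 15 members chosen by smallest p or highest signal. With an array left out it turned for Hoxa3 (-0.015 to 0.15), Hoxa7 (-0.038 to 0.13) and Hoxc9 (-0.081 to 0.084). It also turned for Hoxa7 with array weights (-0.014) and for Hoxc9 with median centring (-0.022). At another probe set of the gene it turned for Hoxa5 (-0.070), Hoxa3 (-0.073) and Hoxa9 (-0.15). Over all 33 members array weights turned 8, by most for Hoxc4 (0.22, against -0.14 unweighted) and Hoxb4 (-0.16, against 0.06). The cause was not tested. No source says that equal replicate numbers pair the arrays, and the correlations of same-numbered arrays (0.205, -0.11 and 0.115) lay within those of other pairs (-0.315 to 0.316). With replicate number as a block 0 members and 653 probe sets passed, Dhrs3 was lost and Fgf4 was gained. A filter on the dimmest 25% of probe sets keeps 20 members.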
